A study of Caenorhabditis elegans with 11 samples.

Results

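The glutathione S-transferases (GSTs) and the UDP-glucuronosyl transferases (UGTs) of *C. elegans* were followed in 2 strains with opposite DBL-1 activity, BW1940 and LT186. The families were taken by name: every gene called gst, gsto or ugt with a number that had an Affymetrix probe set assigned to it alone, and, for 4 genes with more than 1 such probe set, the one with the highest mean over the arrays. This gave 107 genes, 43 GSTs (40 gst and 3 gsto) and 64 UGTs, of 17118 genes with such a probe set. A further 7 family genes (gst-25, gst-34, gst-35, gst-37, ugt-34, ugt-49 and ugt-65) have no probe set assigned to them alone and were not analysed here.

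Both families serve the second phase of detoxification. GSTs join glutathione, a small thiol-bearing peptide, to reactive electrophilic compounds, and UGTs, anchored in the membrane of the endoplasmic reticulum, move the sugar of a UDP-sugar onto small lipophilic molecules. Cytochrome P450 enzymes often act before them and ABC transporters of the P-glycoprotein and multidrug resistance protein types export the conjugates. In worms many of these genes are used in the intestine, several GSTs are induced through the transcription factor SKN-1, and members of each family lie next to each other in the genome.

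RNA from whole worms staged by eye as L4 was measured on 11 arrays, 5 for BW1940 and 6 for LT186, which the labels call biological replicates. BW1940 carries the integrated transgene ctIs40, made of the cosmid ZC421, which includes dbl-1, a BMP-like ligand, and the marker sur-5::gfp. LT186 is sma-6(wk7), a molecular null of the type I receptor of that ligand. Both derive from the N2 strain, were synchronised at L1 and were grown on OP50 bacteria at 20°C. No wild-type array is compared here, so a difference cannot be divided between excess ligand and loss of the receptor. In such RNA from whole animals, fewer cells of a type and less RNA per cell cannot be told apart.

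The values are background-corrected intensities scaled by the authors to the same average on each array. They have no unit beyond that, and a level can be compared between arrays for 1 probe set but not between genes. The median of an array was 37.0 to 40.0 for BW1940 and 34.2 to 38.8 for LT186, and the number of arrays limits the precision. The sma-6 probe set with the higher mean read 82.4 to 128 in BW1940 and 26.5 to 33.6 in LT186. For dbl-1, 1 probe set read 54.9 to 107 in BW1940 and 40.8 to 79.5 in LT186 (log2 fold change 0.40, limma adjusted p = 0.318), and the other read 20.1 to 62.0 in BW1940 and 14.6 to 28.6 in LT186 (log2 fold change 0.78, limma adjusted p = 0.117). The strains overlap in both. BW1940 replicate 1 and LT186 replicates 2 and 4 stood apart in 37 genes of sperm, the msp, ssp and nspd families: their mean log2 level was 7.46 on the first and 5.86 and 5.51 on the LT186 pair, against 8.18 to 9.68 on the rest of the BW1940 arrays and 9.51 to 9.83 on the rest of the LT186 arrays. LT186 replicates 2 and 4 were also the closest pair of the series, with a median absolute difference of 0.11 in log2 between them.

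Of the 107 genes, 96 (39 GSTs and 57 UGTs) reached a value of 10 on 2 or more arrays and were tested. None of the 39 GSTs and none of the 57 UGTs passed limma's test at an adjusted p of 0.05, against 154 of all 14297 genes tested (1.08%). The methods' t-test, applied to log2 values with the same adjustment, called 1 GST and 2 UGTs. At an unadjusted p under 0.05 in limma, 8 GSTs (20.5%) and 8 UGTs (14.0%) had higher values in BW1940, where 11.8% of all genes did. In the other direction there was no GST and 1 UGT (1.75%), which was tested through LT186 alone, against 5.34% of all genes. Read against those shares, 16 members of 96 (16.7%) on the higher side are above the background and 1 of 96 (1.04%) on the lower side is below it, with no test of either difference. The UGTs alone, at 14.0%, are near the 11.8% of all genes. Under quantile normalization the higher side fell to 5 GSTs and 5 UGTs, and the share of all genes in that setting is not given here.

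The share of positive values is given for each family beside that of all genes, and the difference between the families was not tested. Of the 39 GSTs, 32 (82.1%) had a positive log2 fold change of BW1940 over LT186, and their median was 0.17 with quartiles of 0.07 and 0.37. Of the 57 UGTs, 36 (63.2%) were positive, with a median of 0.12 and quartiles of -0.17 and 0.40. These UGTs include 3 that reached 10 in 1 strain only: ugt-53 in BW1940, with a positive value, and ugt-18 and ugt-45 in LT186, with negative values. Over all genes 59.8% were positive and the median was 0.07, with quartiles of -0.13 and 0.25, which puts the share of positive UGTs near the background. Quantile normalization, which forces all arrays to 1 distribution, moved the median of all genes to 0.00, that of the GSTs to 0.12 (26 positive) and that of the UGTs to 0.07 (35 positive). UGTs varied more between arrays of a strain, with a median SD of 0.41 in log2 against 0.31 for GSTs and 0.31 for all genes.

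**Figure D1:**
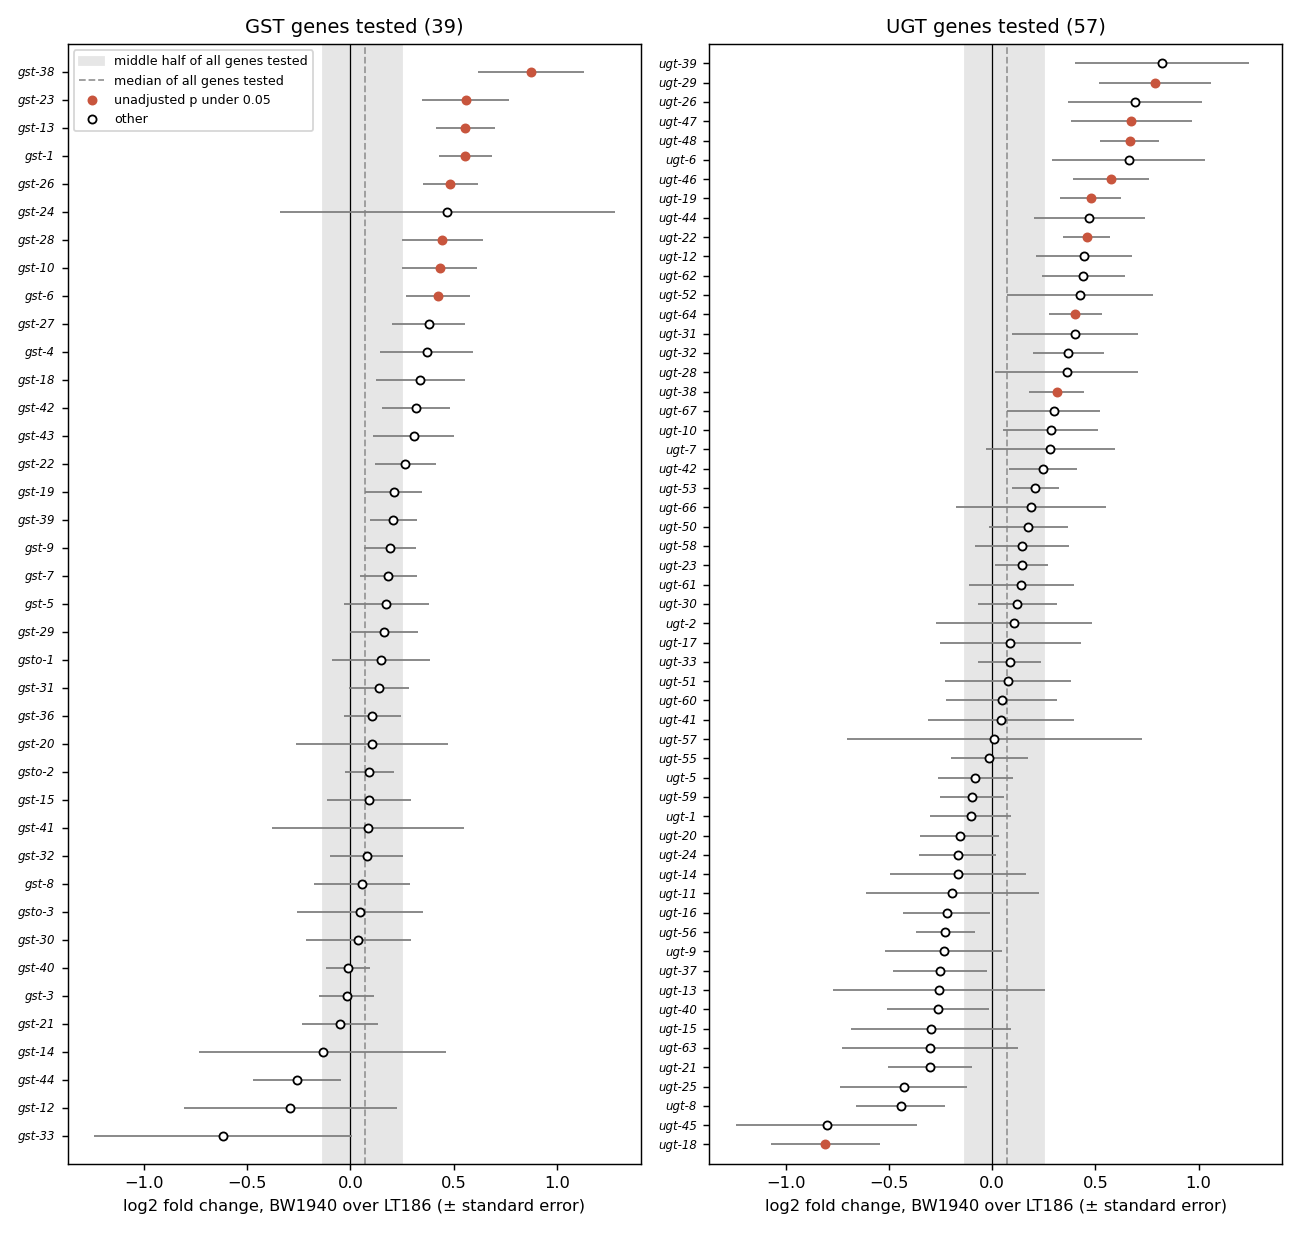
Log2 fold change of BW1940 over LT186 (horizontal axis, with SE) for the 39 GSTs and the 57 UGTs tested, in order of size down the page; filled points have an unadjusted p under 0.05 in limma, the grey band runs between the quartiles of all genes and the dashed line is their median of 0.07. The GSTs lie above 0 in 32 cases and the UGTs in 36, and 7 GSTs and 21 UGTs lie below 0.

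Among the GSTs, 3 had every BW1940 array above every LT186 array: gst-1, gst-13 and gst-26 (7.69% of those tested, against 2.94% of all genes). No GST or UGT had every BW1940 array below, as 1.62% of all genes had. gst-1 encodes an enzyme like the pi class that has been tied to the protection of dopamine neurons in worms. It read 803, 1127, 762, 823 and 896 in BW1940, against a lowest value of 504, a median of 611 and a highest value of 660 in LT186. No array of the 2 strains crossed, the highest BW1940 value was that of replicate 2, and the lowest of all were LT186 replicates 4 and 2. gst-1 averaged 882 ± 145 in BW1940 and 594 ± 60.7 in LT186 (SD, n = 5 and 6), a log2 fold change of 0.56 (SE 0.13) that did not pass limma's test (adjusted p = 0.0709, range over the alternatives 0.0198 to 0.543). The exact permutation test over the 462 divisions of the arrays gave a two-sided p of 0.00216, the smallest it can give. Where the strains do not overlap this p lies at or near its smallest value by construction. It is also unadjusted, so it restates the lack of overlap and adds no support to it.

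gst-13 read 688, 870, 628, 752 and 744 in BW1940, against a lowest value of 387, a median of 527 and a highest value of 581 in LT186. The strains again did not overlap, and BW1940 replicate 2 was again the highest array. Its log2 fold change was 0.56 (SE 0.14, limma adjusted p = 0.0953, range over the alternatives 0.0318 to 0.543). gst-26 read 545, 642, 586, 558 and 634 in BW1940, against a lowest value of 330, a median of 444 and a highest value of 508 in LT186. The gap between the strains was narrow, 545 in BW1940 replicate 1 against 508 in LT186 replicate 5, yet it was the only gap of the 3 GSTs that was still there after quantile normalization. gst-26 averaged 593 ± 43.6 in BW1940 and 425 ± 71.2 in LT186 (SD, n = 5 and 6), a log2 fold change of 0.48 (SE 0.13, limma adjusted p = 0.117, range over the alternatives 0.0411 to 0.543). Quantile normalization also lowered the 3 log2 fold changes, to 0.32 for gst-1, 0.34 for gst-13 and 0.31 for gst-26.

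The largest fold change of a GST was that of gst-38. It read 360, 104, 228, 181 and 224 in BW1940, against a lowest value of 78.2, a median of 108 and a highest value of 139 in LT186. BW1940 replicate 2 lay inside the LT186 range and the 4 other BW1940 arrays lay above it. gst-38 averaged 220 ± 92.9 in BW1940 and 108 ± 21.2 in LT186, a log2 fold change of 0.88 (SE 0.26, limma adjusted p = 0.134, range over the alternatives 0.0389 to 0.543). Without BW1940 replicate 2 it was 1.10 and passed limma's test (adjusted p = 0.0465). Unlike gst-1, it hardly moved under quantile normalization, at 0.85.

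**Figure D2:**
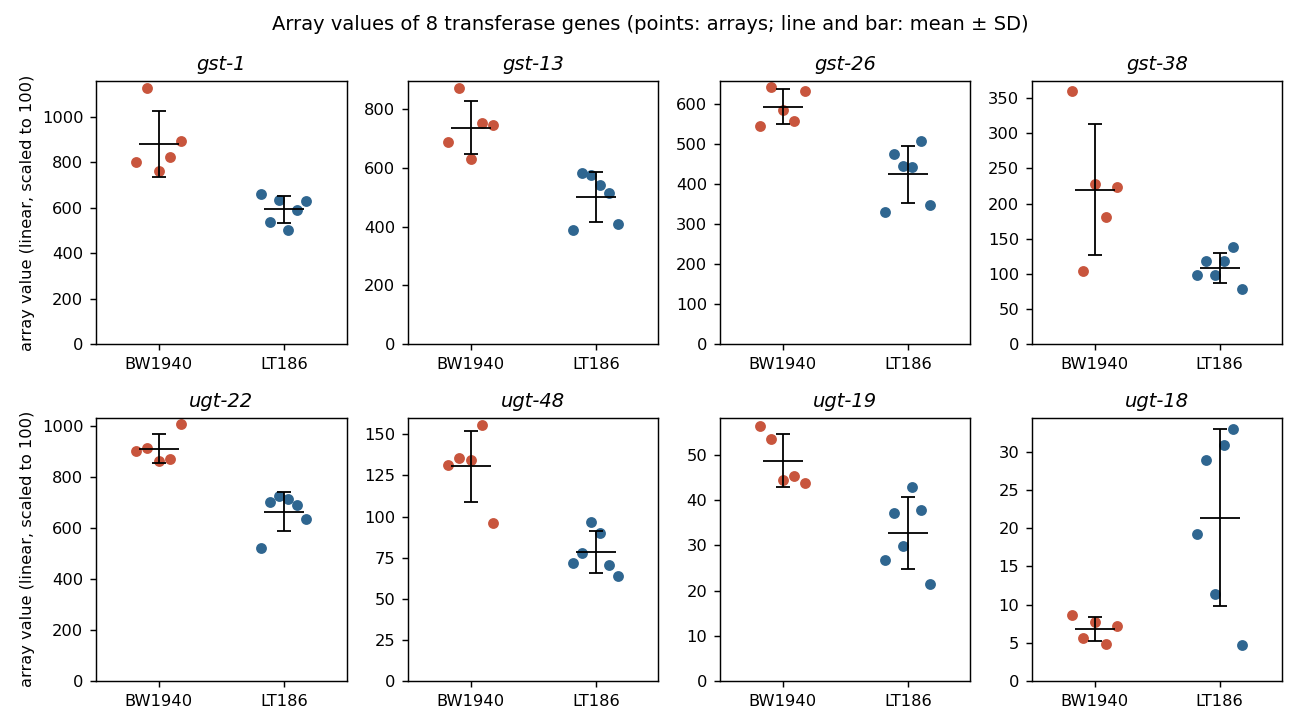
Intensity on each array (vertical axis, arbitrary units) of 4 GSTs (gst-1, gst-13, gst-26 and gst-38) and 4 UGTs (ugt-22, ugt-48, ugt-19 and ugt-18), with BW1940 left of LT186 in each panel; points are arrays, and the bar and whiskers are the mean and SD. The strains do not overlap in gst-1, gst-13, gst-26, ugt-22 and ugt-19, 1 BW1940 array lies within the LT186 range in gst-38 and ugt-48, and ugt-18 is higher in LT186 on all arrays but replicate 6.

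Other GSTs with a role described in worms overlapped between the strains. gst-4, the usual reporter of SKN-1 activity, read 233, 627, 303, 458 and 440 in BW1940, against a lowest value of 234, a median of 303 and a highest value of 351 in LT186. BW1940 replicate 1 was the lowest array of all and BW1940 replicate 2 the highest, so the BW1940 arrays enclosed those of LT186. The log2 fold change was 0.37 (SE 0.23, limma adjusted p = 0.466, range over the alternatives 0.180 to 0.766). gst-10, whose enzyme conjugates hydroxynonenal, a product of lipid peroxidation, read 863, 1041, 720, 1173 and 1122 in BW1940, against a lowest value of 482, a median of 758 and a highest value of 931 in LT186. The 3 BW1940 replicates 2, 4 and 5 stood above all LT186 arrays, and the log2 fold change was 0.43 (SE 0.18, limma adjusted p = 0.263). gst-42, the zeta class enzyme of tyrosine breakdown, averaged 366 ± 34.9 in BW1940 and 297 ± 67.0 in LT186, and gsto-1, of the omega class, averaged 215 ± 41.3 in BW1940 and 199 ± 63.6 in LT186 (SD, n = 5 and 6). Neither passed limma's test (adjusted p = 0.368 for gst-42 and 0.840 for gsto-1). The 3 gsto genes were all positive with a median log2 fold change of 0.09.

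At unadjusted p the 8 GSTs also held gst-6, gst-28, gst-10 and gst-23. gst-6 averaged 374 ± 37.98 in BW1940 and 280 ± 62.1 in LT186, and gst-28 averaged 272 ± 37.8 in BW1940 and 203 ± 58.0 in LT186. gst-23 sat near the lower end of the measured range, at 17.1 ± 5.48 in BW1940 and 8.74 ± 5.01 in LT186 (log2 fold change 0.56, limma adjusted p = 0.216). At such levels the constant of 10 added before the logarithm understates a ratio.

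The 7 GSTs with a negative log2 fold change reached no further than -0.62 (gst-33, SE 0.63, limma adjusted p = 0.706). gst-12 followed at -0.29, gst-44 at -0.26, gst-14 at -0.13 and gst-21 at -0.05. gst-16, which was under the minimum and not tested, read 7.03, 14.3, 7.77, 9.88 and 9.51 in BW1940, against a lowest value of -1.43, a median of 2.10 and a highest value of 8.66 in LT186. These values overlap and lie at the bottom of the scale, and its probe set is of the kind that may also match other transcripts.

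Of the UGTs, 2 of those tested had no overlap between the strains (3.51%, against 2.94% of all genes), ugt-22 and ugt-19, both with BW1940 above. ugt-22 read 902, 915, 862, 871 and 1008 in BW1940, against a lowest value of 520, a median of 696 and a highest value of 727 in LT186. The BW1940 arrays were close together and stood well clear of LT186 replicate 3, the highest of that strain. The means were 911 ± 58.0 in BW1940 and 664 ± 78.0 in LT186 (SD, n = 5 and 6), a log2 fold change of 0.46 (SE 0.11, limma adjusted p = 0.0882, range over the alternatives 0.0296 to 0.543). The exact permutation p was 0.00216, which again only restates the lack of overlap. After quantile normalization the log2 fold change was 0.21 and the strains overlapped.

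ugt-48 had the lowest p of all members. Its chosen probe set read 131, 135, 135, 156 and 95.8 in BW1940, against a lowest value of 63.6, a median of 74.7 and a highest value of 97.0 in LT186. Only BW1940 replicate 5 lay inside the LT186 range, just below LT186 replicate 3. The log2 fold change was 0.67 (SE 0.14, limma adjusted p = 0.0546, range over the alternatives 0.0169 to 0.464), 0.65 after quantile normalization, and without BW1940 replicate 5 it passed (0.76, adjusted p = 0.0313). A second ugt-48 probe set, of the kind that may match other transcripts, read 119.4, 132, 129, 138 and 116 in BW1940, against a lowest value of 51.7, a median of 76.1 and a highest value of 87.7 in LT186. There the strains did not overlap, and with a log2 fold change of 0.74 (SE 0.14) it passed the adjusted limma test (adjusted p = 0.0284), as 1.02% of all probe sets tested did. Thus the gene's 2 probe sets had nearly the same difference and fell on either side of the threshold.

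ugt-19 read 56.5, 53.4, 44.5, 45.3 and 43.7 in BW1940, against a lowest value of 21.5, a median of 33.5 and a highest value of 42.9 in LT186. BW1940 replicate 5 and LT186 replicate 4 nearly met. The log2 fold change was 0.48 (SE 0.15, limma adjusted p = 0.149, range over the alternatives 0.0291 to 0.557). Its neighbour on chromosome IV, ugt-20, averaged 36.5 ± 10.7 in BW1940 and 41.8 ± 11.3 in LT186, a log2 fold change of -0.16. ugt-4, under the minimum and not tested, also had no overlap, at 5.28 to 7.44 in BW1940 and 2.32 to 5.14 in LT186.

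The UGTs with the highest fold changes were ugt-39 (log2 fold change 0.82), ugt-29 (0.79), ugt-26 (0.69), ugt-47 (0.67) and ugt-48. ugt-29 read 246, 90.7, 129, 105 and 99.0 in BW1940, against a lowest value of 49.3, a median of 58.6 and a highest value of 104 in LT186. BW1940 replicate 1 was far above every other array, and LT186 replicates 2 and 4, at 104 and 102, were the LT186 arrays that overlapped BW1940 (limma adjusted p = 0.176, range over the alternatives 0.00979 to 0.571). ugt-46 had the same 2 LT186 arrays on top: it read 409, 304, 326, 320 and 444 in BW1940, against a lowest value of 188, a median of 211 and a highest value of 337 in LT186. Its log2 fold change was 0.57 (SE 0.18, limma adjusted p = 0.157, range over the alternatives 0.0148 to 0.568), and that of its second probe set was 0.36. ugt-26 was likewise highest in BW1940 replicate 1, at 522, against 176 to 328 on the rest of the BW1940 arrays and 99.8 to 244 in LT186. ugt-64, a smaller but steadier difference, averaged 98.5 ± 13.6 in BW1940 and 72.2 ± 11.4 in LT186 (log2 fold change 0.40, limma adjusted p = 0.158), and ugt-38 averaged 18.9 ± 3.32 in BW1940 and 13.4 ± 3.28 in LT186.

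On the other side stood ugt-18, the 1 member with a lower value in BW1940 at an unadjusted p under 0.05. It reached the minimum of 10 in LT186 alone, so it was tested only because of the strain in which it was high, and its p is no support for a difference. It read 8.62, 5.61, 7.66, 4.77 and 7.20 in BW1940, against a lowest value of 4.66, a median of 24.1 and a highest value of 33.0 in LT186. LT186 replicate 6, at 4.66, lay below every BW1940 array, and the 5 other LT186 arrays lay above them all. The means were 6.77 ± 1.56 in BW1940 and 21.4 ± 11.6 in LT186, a log2 fold change of -0.81 (SE 0.26, limma adjusted p = 0.165, range over the alternatives 0.0553 to 0.446). All BW1940 values lie under that minimum, so the ratio of means of 3.16 for LT186 over BW1940 rests on signals near the bottom of the scale. ugt-45, tested through LT186 alone as well, had a log2 fold change of -0.80, and ugt-8 averaged 83.0 ± 17.4 in BW1940 and 119.2 ± 37.7 in LT186 (log2 fold change -0.44, limma adjusted p = 0.327). ugt-25 was at -0.43 and ugt-21 at -0.30, neither past limma's test (adjusted p ranges over the alternatives 0.255 to 0.765 for ugt-25 and 0.375 to 0.839 for ugt-21).

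Position in the genome gave a further view, since 23 of the 43 GSTs lie on chromosome II and 40 of the 64 UGTs on chromosome V. Genes were taken as a run where no more than 3 steps in the order of protein-coding genes separated each from the next. In the chromosome II run of gst-26, gst-27, gst-28, gst-29, gst-39, gst-31 and gst-32, all 7 measured genes were positive, between 0.08 and 0.48 in log2 with a median of 0.21. Under quantile normalization gst-32, which sat near the lower end of the measured range, turned to -0.0081. The rest of that run stayed positive. The run of gst-6, gst-7, gst-8 and gst-9 on the same chromosome also had 4 of 4 positive, with a median of 0.19, although gst-7 turned to -0.06 under quantile normalization. Near-identical neighbours may share probes, so these genes are not independent measurements.

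The other chromosome II run, gst-20, gst-24, gst-15, gst-14, gst-12, gst-16, gst-19, gst-17 and gst-18, was unlike them: of 7 tested, 5 were positive and 2 negative, with a median of 0.11 and a median SD between arrays of a strain of 0.67. Among the UGTs, the chromosome V run of 8 genes around ugt-12 and ugt-13 had 3 positive and 5 negative, with a median of -0.18. The run of ugt-18, ugt-16 and ugt-15 had all 3 negative, though ugt-18 was tested through LT186 alone. ugt-16 was at -0.22 and ugt-15 at -0.30, and neither passed limma's test (adjusted p ranges over the alternatives 0.436 to 0.902 for ugt-16 and 0.281 to 0.957 for ugt-15). On chromosome I the run of ugt-26, ugt-27, ugt-28 and ugt-25 held values of opposite sign, 0.69 for ugt-26 and -0.43 for ugt-25.

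**Figure D3:**
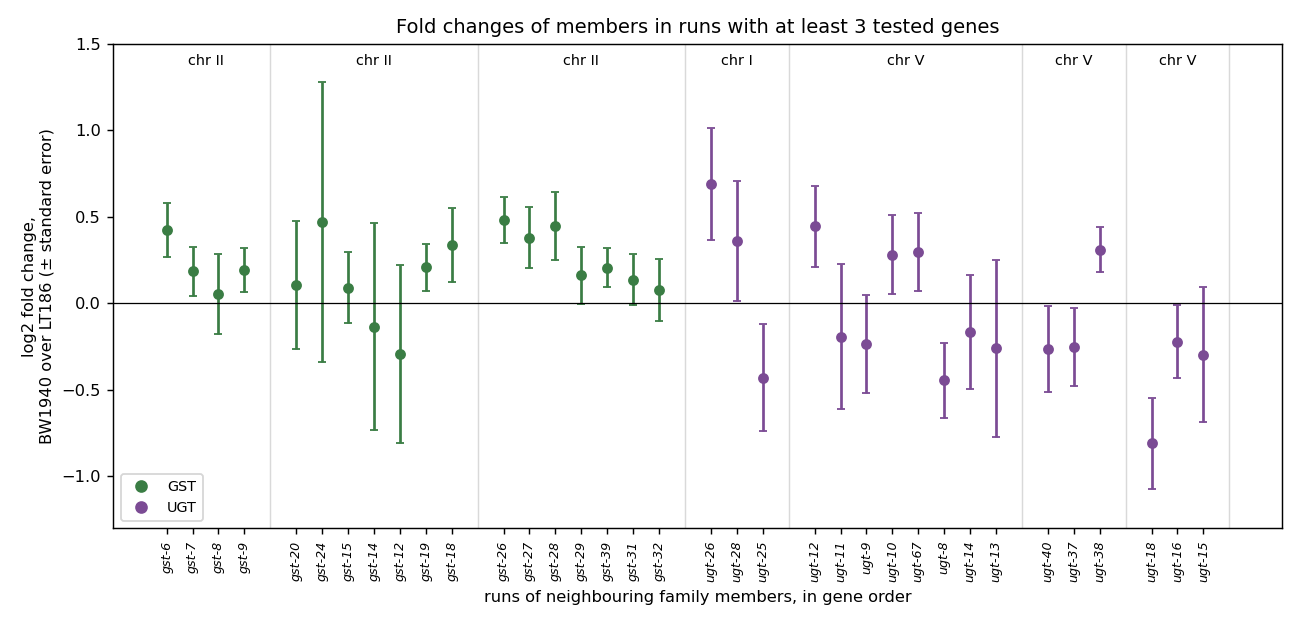
Log2 fold change of BW1940 over LT186 with SE (vertical axis) for the members of each run with at least 3 genes tested, placed in gene order along the chromosome named (horizontal axis, order only). The gst-26 run lies wholly above 0, the ugt-18 run wholly below 0, and the gst-20 and ugt-12 runs straddle it with wide errors. ugt-18 itself was tested through LT186 alone.

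The wide errors came from differences between arrays of 1 strain. gst-24 read 228, 43.5, 158, 32.6 and 103 in BW1940, against a lowest value of 3.82, a median of 59.2 and a highest value of 296 in LT186. LT186 replicates 2 and 4 held the 2 highest values, 296 and 260, and LT186 replicate 6 the lowest. gst-20 was ordered alike, at 569, 263, 471, 258 and 509 in BW1940, against a lowest value of 198, a median of 357 and a highest value of 716 in LT186. gst-14 and gst-12, from the same run, and ugt-13, from another chromosome, had the same LT186 pair on top: ugt-13 read 357 and 348 there, against 68.1 to 182 on the 4 other LT186 arrays. The log2 fold changes of these genes were small beside their errors, 0.47 (SE 0.81) for gst-24, 0.11 (SE 0.37) for gst-20, -0.29 (SE 0.52) for gst-12, -0.13 (SE 0.60) for gst-14 and -0.26 (SE 0.51) for ugt-13.

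This order was frequent among the members. LT186 replicates 2 and 4 were the 2 highest of the 6 LT186 arrays in 16 of 39 GSTs (41.0%) and in 28 of 57 UGTs (49.1%), and they were so in 29.2% of all genes tested. They were the 2 lowest in 1 GST, gst-1 (2.56%), and in 3 UGTs, ugt-24, ugt-51 and ugt-52 (5.26%), against 22.4% of all genes. The mean log2 level of the GSTs was 6.59 to 6.96 in BW1940, against 6.99 and 6.88 on that LT186 pair and 6.23 to 6.66 on the 4 other LT186 arrays. For the UGTs it was 6.15 to 6.36 in BW1940, against 6.45 and 6.42 on the pair and 5.82 to 6.07 on the 4 other LT186 arrays. Over both families, then, the pair lay within or above the BW1940 range and the 4 other LT186 arrays lay below it, with 1 exception: LT186 replicate 3 was within it for the GSTs.

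The same LT186 pair had the lowest sperm gene level of all arrays. That level thus ran opposite to these values there, and its part in them was not tested. Some members ran the other way, though not on every array. ugt-6 read 109, 245, 74.2, 291 and 194 in BW1940, against a lowest value of 66.2, a median of 88.5 and a highest value of 168 in LT186. Its lowest BW1940 arrays were replicates 3 and 1. In LT186 its replicates 2 and 4 were low, at 68.9 and 67.3. LT186 replicate 5, with the highest sperm gene level of all arrays (9.83), was lower still, at 66.2. ugt-47 read 116, 306, 117, 214 and 168 in BW1940, against a lowest value of 76.6, a median of 84.9 and a highest value of 176 in LT186, with the same BW1940 arrays at the bottom. Its lowest LT186 array was likewise replicate 5, at 76.6, against 80.2 and 82.6 on LT186 replicates 2 and 4. The sperm gene level was also used as a covariate, chosen with these patterns known. In that setting 6 of 39 GSTs and 8 of 57 UGTs passed limma's test with higher values in BW1940 and none with lower. Of all 14297 genes tested, 574 passed with higher and 731 with lower values, and the differences in share were not tested.

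**Figure D4:**
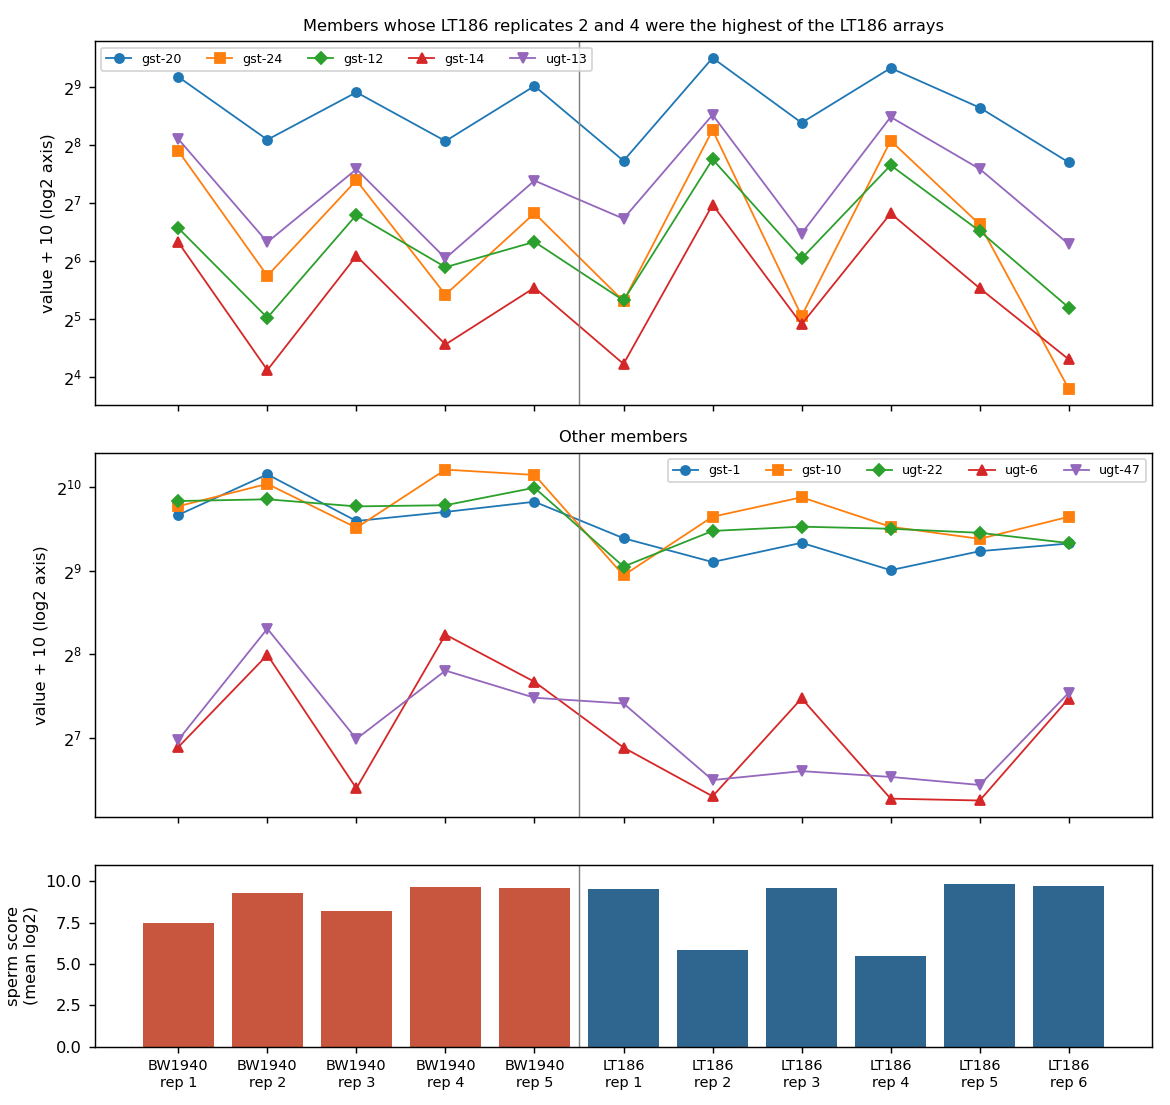
Log2 of intensity plus 10 (vertical axis) on each array (horizontal axis, BW1940 replicates 1 to 5, then LT186 replicates 1 to 6) for gst-20, gst-24, gst-12, gst-14 and ugt-13 in the top panel and for gst-1, gst-10, ugt-22, ugt-6 and ugt-47 in the middle panel, with the mean log2 level of 37 sperm genes as bars in the bottom panel; lines only join the points of a gene, since replicates have no order. The top genes peak in LT186 replicates 2 and 4 where the bars are lowest, at 5.86 and 5.51.

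Markers of tissues were set beside these values. All 11 intestinal markers measured had a positive log2 fold change, with a median of 0.50, 8 of them at an unadjusted p under 0.05, and their summed level was 9523 to 11160 in BW1940 and 5909 to 8490 in LT186. None of them passed limma's test after adjustment. None of 10 germ line markers was positive, with a median of -0.44. Their sums overlapped, at 2126 to 2780 in BW1940 and 2655 to 3474 in LT186. Of these 10, 5 were lower at an unadjusted p under 0.05 and none passed limma's adjusted test. Sums overlapped for hypodermis (1676 to 4418 in BW1940, 1661 to 4656 in LT186), neurons (1463 to 1970 in BW1940, 1265 to 1960 in LT186, with unc-31 under 10 on every array), muscle (6980 to 9204 in BW1940, 5719 to 7654 in LT186) and sperm (12580 to 45820 in BW1940, 2198 to 51380 in LT186). Although those sums overlap, 6 of 8 muscle markers were positive with a median of 0.24, 4 of them at an unadjusted p under 0.05, but none was positive after quantile normalization, with a median of -0.08. Of the sperm genes, 33 of 37 were positive with a median of 0.62, none at an unadjusted p under 0.05. Hypodermis markers had a median of 0.17 (7 of 10 positive) and neuron markers a median of 0.10 (5 of 7 tested positive). In the reported setting every marker list but that of the germ line thus had a median on the same side as the GSTs. The median of all genes, 0.07, was on that side too, and the part of tissues in the result was not tested.

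Other genes of the pathway are read against the same shares of all genes, 1.08% past limma's adjusted test and 11.8% higher and 5.34% lower at an unadjusted p under 0.05. Of 63 cytochrome P450 genes tested, 1 (1.59%) passed limma's test: cyp-29A3 rose to 38.03 ± 10.4 in BW1940, against 3.22 ± 4.32 in LT186 (log2 fold change 1.84, SE 0.22, adjusted p = 0.00222), and every LT186 array lay under the minimum of 10, so it was tested through BW1940 alone. The median of the 63 was 0.12, with 5 higher (7.94%) and 4 lower (6.35%) at an unadjusted p under 0.05 in limma. None of the 8 genes of glutathione synthesis and recycling tested passed limma's test, with 2 higher and 1 lower at an unadjusted p under 0.05. gcs-1, which makes the first step of glutathione synthesis and is a SKN-1 target, had a log2 fold change of 0.23 (SE 0.13, limma adjusted p = 0.403). Nor did any of the 7 glutathione peroxidases tested pass, although 6 were positive with a median of 0.35 and 3 (42.9%) had an unadjusted p under 0.05, all with BW1940 above, with gpx-7 at 78.9 ± 17.6 in BW1940 and 45.7 ± 9.63 in LT186 (log2 fold change 0.67, limma adjusted p = 0.0878). Of the other glutathione and phase II transferases, 3 were tested, all 3 were positive with a median of 0.18, 1 was higher at an unadjusted p under 0.05 and none passed limma's adjusted test.

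The 10 genes of UDP-sugar supply tested, which make and carry the sugar donors of the UGTs, had a median of 0.03, with 1 higher and 1 lower at an unadjusted p under 0.05 and none past limma's adjusted test. The 15 regulators had 2 higher and none lower at that level and none past the adjusted test; skn-1 was at 0.12 (limma adjusted p = 0.884) and wdr-23, its inhibitor, at 0.03 (0.960). Of the exporters, 11 P-glycoproteins tested had a median of 0.01 and 8 multidrug resistance proteins a median of 0.08, each with 1 gene higher and none lower at an unadjusted p under 0.05 and none past limma's adjusted test. The 1 P-glycoprotein was pgp-5, with a log2 fold change of 1.57 (SE 0.36, limma adjusted p = 0.0678). Every BW1940 array lay above every LT186 array there, as in 2.94% of all genes. The list does not hold pgp-6, which the study reports as higher in BW1940. The median was thus above the 0.17 of the GSTs for the peroxidases and the other transferases and below it for the rest of these lists, and no difference between lists was tested.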

How the data were processed

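Total RNA of L4 worms was hybridised to Affymetrix *C. elegans* arrays. The deposited values are linear intensities of 22548 probe sets on 11 arrays, made by the authors with Microarray Suite and Probe Profiler 1.3.11 and globally scaled; the submitters' processing notes name MAS5. The labels give the genotypes dbl-1 and sma 6, and the strain names come from the study's methods. Genes were named from the platform annotation: 20766 probe sets have 1 symbol, 887 several and 895 none, and only the first kind was used, so 2 probe sets shared with a member were left out. Chromosomes and gene order came from RefSeq's WBcel235 table, which matched all 107 members; of these, 18 had a probe set of the kind that may match other transcripts.

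Values below 0 were set to 0, 10 was added and log2 taken. Probe sets that reached 10 on 2 or more of 11 arrays (18801) were fitted with limma 3.58.1 (lmFit, eBayes) in R 4.3.3, BW1940 minus LT186, with Benjamini-Hochberg adjustment over all of them at 0.05; P-values measure the spread between these arrays. This replaces the modified t-test of the study's methods, a plain form of which was run as an alternative. Single genes also had a two-sided exact permutation test of the mean log2 difference. Scripts were tested on simulated data; tables and plots were made with Python 3.11.15. The alternatives were other offsets, filters and normalizations, the replicate block, array weights, the sperm covariate, averaged or left-out arrays and every probe set.

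The members and lists were chosen with earlier results of these data known. Genes were named where they passed the test, were among the 5 highest or lowest log2 fold changes or the 5 highest means of a family, had no overlap between the strains, had a background role, or were gst-16 or ugt-18, which a supplementary table of the study gives by these names (other members stand in it under other identifiers). The genes gst-6, gst-20, gst-24, gst-28, gst-41, ugt-6, ugt-13, ugt-15, ugt-16, ugt-20, ugt-24, ugt-31, ugt-38, ugt-51, ugt-52, ugt-57, ugt-63, ugt-64, gpx-7, pgp-5 and unc-31 were named after their values were seen. The same holds for gst-32 and ugt-53.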

Additional observations from a re-analysis of the deposited data

Results flagged for a closer look

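Gaps and ranges were taken on log2 of the value plus 10, with values below 0 set to 0. In 102 groups of arrays tested for a single array far from the rest, 3 were found, where chance alone gives about 1 in 20. The highest array of ugt-45 in BW1940 was replicate 3, at an intensity of 6.98, with the next at 1.52 and the lowest at -11.89, which counts as 0 here; on the log2 scale the gap was 0.733 of the strain's whole range, and all 5 values lie under the minimum of 10. The highest of ugt-31 in BW1940 was replicate 1, at an intensity of 112, with the next at 56.9, and on the log2 scale the gap was 0.731 of the range. BW1940 replicate 1 also had the highest mean log2 level of the UGTs, 6.36, with a gap of 0.733 of the range.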

How the results depend on the processing

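No GST and no UGT passed limma's adjusted test in the reported setting, in which 191 probe sets did. An offset of 50 gave 1 GST and 2 UGTs (366 probe sets), no filter on low values 1 and 2 (416), the methods' t-test 1 and 2 on log2 values (381) and 0 and 2 on linear values (329), array weights 1 and 1 (443), a filter of 30 no GST and 1 UGT, every probe set no GST and 1 UGT, and the sperm covariate 6 and 8 (1625); the genes were among gst-1, gst-38, ugt-22 and ugt-48 in all but the covariate setting. Leaving out 1 array at a time gave 0 to 1 GST, 0 to 1 UGT and 78 to 151 probe sets: gst-38 passed without BW1940 replicate 2 and ugt-48 without BW1940 replicate 5. At an unadjusted p under 0.05, GSTs with higher values numbered 5 under quantile normalization and 5 to 10 with 1 array left out. UGTs with higher values numbered 5 under quantile normalization, 15 with array weights, 16 with the covariate and 6 to 12 with 1 array left out; those with lower values numbered 2 with arrays centred on their median, 2 with array weights, 2 with the covariate and 1 to 3 with 1 array left out. Without the 3 arrays of lowest sperm gene level, an alternative chosen after seeing the data, UGTs numbered 15 higher and 0 lower and 83 probe sets passed. The share of all genes at an unadjusted p under 0.05 is given for the reported setting only. Counts of members in the alternatives therefore cannot be read as a result about the families. Probe sets past the adjusted test rose too, to 443 with array weights and 1625 with the covariate.

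Same-numbered arrays deviated together in no clear way (correlations of -0.69, -0.64, -0.30, -0.59 and 0.10), so the reported setting did not treat them as pairs. These correlations run over all probe sets tested and cannot exclude a pairing hidden under larger differences between arrays. The replicate block gave 5 GSTs and 3 UGTs with higher and 3 UGTs with lower values at an unadjusted p under 0.05, and 5 probe sets past the test.

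Of 1127 values of 47 named members over the alternatives, 1052 kept their direction and side of the threshold, 31 went past it and 44 changed sign, in 10 members that were not past the threshold in the reported setting; the cause was not tested. As log2 fold changes, array weights gave gst-12 0.23, gst-14 0.43, gst-21 0.079 and ugt-13 0.18. Leaving out the 3 arrays gave gst-12 0.24, gst-14 0.34, gst-21 0.087, ugt-13 0.065 and ugt-63 0.047. The sperm covariate gave gst-14 0.15 and gst-21 0.0076, and averaging LT186 replicates 2 and 4 gave gst-14 0.15 and gst-21 0.0071. Quantile normalization gave gst-7 -0.064, ugt-57 -0.0056 and gst-20 -0.025, an offset of 50 gave ugt-57 -0.068 and centred arrays gave ugt-57 -0.042. The replicate block gave gst-24 -0.0093, ugt-57 -0.50, gst-41 -0.065 and gst-20 -0.065. On linear values the differences of means were -3.78 for gst-24 and -11.8 for ugt-57. With 1 array left out, gst-14 ranged between -0.38 and 0.17, gst-21 between -0.18 and 0.018, gst-24 between -0.0093 and 0.88, gst-20 between -0.065 and 0.30, gst-41 between -0.17 and 0.32, ugt-57 between -0.50 and 0.36 and ugt-13 between -0.51 and 0.0017.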
